A study of Homo sapiens with 24 samples.

Results

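The mitosis and spindle genes described here are 46 protein-coding genes that drive or carry out cell division, chosen from a fixed list of names and matched by Ensembl ID. They are 46 of 58735 genes in the SK-N-SH siRNA count table, of 61541 in the SK-N-SH CRISPRi table and of 78932 in the SK-N-AS CRISPRi table. All 46 passed the filter on low counts in each experiment. RNA sequencing compared cells depleted of FAM167A (also called DIORA1) with control cells in 2 human neuroblastoma lines. In the siRNA experiment, SK-N-SH cells received a pool of small interfering RNAs against DIORA1 (5 libraries) or a control pool that targets no gene (5 libraries). CRISPRi was used in the other experiments: in it, a guide RNA directs a catalytically inactive Cas9 with a repressor to a gene. SK-N-SH cells carried sgDIORA1 (3 libraries) or the non-targeting guide sgGal4 (3 libraries). SK-N-AS cells carried the same pair of guide labels (4 libraries each). No treatment, time point or clone is given in the labels, and nothing there says that the libraries of a group came from separate cultures, so p-values measure the spread between these libraries, which may be technical.

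Cells enter mitosis when cyclin B and CDK1 are switched on by CDC25 phosphatases, and the Polo and Aurora kinases then build a bipolar spindle from microtubules, kinesin motors and bundling proteins. Kinetochores tie chromosomes to the spindle, the spindle checkpoint holds the anaphase-promoting complex until every pair is attached, and separase (ESPL1) then cuts the cohesin that joins sister chromatids. Transcripts of most of these genes rise in G2 and mitosis, under the MYB-MuvB complex and FOXM1, and are held low in G0 and G1 by the DREAM complex, which reads the CHR element in their promoters. Their summed level is widely read as a mark of how many cells of a population are cycling, although in bulk RNA fewer dividing cells and less RNA per cell cannot be told apart.

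The promoters carry the sequence elements of this control. RefSeq promoter sequences (GRCh38.p14) were found for 40 of the 46 genes, with none for AURKA, BIRC5, FOXM1, TPX2, TTK and UBE2C. In the 250 bases before a start site, 24 of these 40 genes (60%) had a promoter with the CHR hexamer TTTGAA on either strand. Among 35116 promoters of the same length, counted singly, 13.3% held it. A gene counted if any of its listed promoters held the motif. This can raise the members' shares, here and below, against those of single promoters. A CCAAT box, the site of NF-Y, stood in 32 of 40 (80.0%), against 32.0% of all. Both stood together in 20 of 40 (50%), against 4.69% of all, and the CHR variant TTTAAA in 13 of 40 (32.5%), against 11.3%. Sites of different motifs may share bases and were counted separately, and a match describes the sequence, not binding. The 4 sequences shown belong to the members with a CHR hexamer that were called in the most experiments (ties went to the smallest adjusted p), so that the reader can see these elements beside genes whose RNA moved. They are written 5′ to 3′ on the gene's own strand, with capitals marking each CHR hexamer or CCAAT box. A box on the opposite strand reads ATTGG here, and an opposite hexamer reads TTCAAA. For ESPL1, TOP2A and ASPM all 250 bases are shown (chromosome 12, 53268049 to 53268298, plus strand; chromosome 17, 40417897 to 40418146, minus strand; chromosome 1, 197146670 to 197146919, minus strand). For ANLN the 30 bases around its pair of sites are shown (chromosome 7, 36389827 to 36389856, plus strand). They lie before the RefSeq start but inside the gene as annotated with the counts, which begins at 36389821. The ASPM stretch also reaches into its annotated gene, whose 5′ edge is at 197146694.
ESPL1: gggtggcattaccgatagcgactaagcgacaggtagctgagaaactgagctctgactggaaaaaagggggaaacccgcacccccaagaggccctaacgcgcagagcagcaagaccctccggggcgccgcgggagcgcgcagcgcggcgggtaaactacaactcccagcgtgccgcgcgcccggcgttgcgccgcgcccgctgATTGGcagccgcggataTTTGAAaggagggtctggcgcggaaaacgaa
ANLN: gcgctgaaaTTCAAATTTGAAcggctgcag
TOP2A: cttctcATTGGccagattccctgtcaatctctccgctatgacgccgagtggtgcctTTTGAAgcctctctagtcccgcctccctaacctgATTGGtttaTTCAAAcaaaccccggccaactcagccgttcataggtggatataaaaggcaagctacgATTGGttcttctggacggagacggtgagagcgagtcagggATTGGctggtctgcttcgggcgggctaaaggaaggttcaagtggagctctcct
ASPM: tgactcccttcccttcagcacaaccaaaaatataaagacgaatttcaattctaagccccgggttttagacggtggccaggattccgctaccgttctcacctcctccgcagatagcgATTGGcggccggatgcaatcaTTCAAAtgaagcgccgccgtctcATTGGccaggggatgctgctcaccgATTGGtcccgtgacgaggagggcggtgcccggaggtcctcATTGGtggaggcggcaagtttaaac
ESPL1 has the CHR hexamer starting 31 bases before the RefSeq start, with an inverted CCAAT box starting at 48. ANLN has an inverted and a forward hexamer abutting each other, starting 26 and 20 bases before the start, and no CCAAT box in the 250 bases. TOP2A holds 2 hexamers and 4 inverted CCAAT boxes, and ASPM 1 inverted hexamer among 4 inverted CCAAT boxes.

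The libraries held 71464698 to 90255175 assigned reads with siRNA, 11690515 to 21628076 in SK-N-SH CRISPRi and 29985858 to 104455853 in SK-N-AS. A level is in CPM, the read count relative to the TMM-scaled library size, and a group is given by its mean ± SD. Each log2 fold change is that of knockdown relative to control, with its standard error (SE) after the ± sign. A gene is called, and said to have risen or fallen, where its Benjamini-Hochberg adjusted p over all tested genes in edgeR's quasi-likelihood test was under 0.05. FAM167A dropped to 34.7% of its control level with siRNA (adjusted p = 7.87e-14) and lower still with CRISPRi, from 242 ± 12.7 to 3.22 ± 0.588 CPM in SK-N-SH and from 95.1 ± 3.56 to 10.2 ± 0.739 CPM in SK-N-AS. The adrenergic neuroblastoma markers were expressed in both lines except TH, which was under 1 CPM in each. Mesenchymal neuroblastoma markers were expressed too, except NOTCH2 in SK-N-AS (under 1 CPM). In controls they summed to 5258 to 5515 CPM with siRNA, 10330 to 11980 in SK-N-SH CRISPRi and 3595 to 3740 in SK-N-AS. The adrenergic markers summed to 4332 to 4793, 2962 to 3138 and 3219 to 3343 CPM in the same controls. Schwann cell precursor and glial, endothelial and blood markers summed to under 6 CPM in every library, save that PTPRC was at 542 CPM in SK-N-AS controls. Knockdown libraries 3 and 4 of the siRNA experiment had 6.45% and 6.41% of reads on mitochondrial genes, against 7.83% to 9.07% in the others, and the counts of siRNA calls and of differences between methods are also given without them.

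All but 2 of the 46 genes were well expressed in control cells. Per exonic length, in TPM (CPM rescaled by gene length), topoisomerase TOP2A (174 ± 8.37), the ubiquitin-conjugating enzyme UBE2C (143 ± 4.49) and cyclin CCNB1 (137 ± 3.85) had the highest levels in siRNA controls, and UBE2C and CCNB1 did not differ beyond their spread. In SK-N-SH CRISPRi controls the order was UBE2C (301 ± 10.1), TOP2A (267 ± 14.4), CCNB1 (249.6 ± 17.2) and the spindle assembly factor TPX2 (245 ± 12.8), where TOP2A, CCNB1 and TPX2 lay within their spread. In SK-N-AS controls CCNB1 (223 ± 6.37) led, followed by the CDK1-activating phosphatase CDC25B (210.1 ± 2.82), survivin gene BIRC5 (203 ± 3.43) and TPX2 (202 ± 9.97). TPX2 lay within its spread of both, whereas CDC25B and BIRC5 were further apart than their SDs together. The 3 tables were made and scaled separately, so these levels stand side by side without a test. PRC1 and NUSAP1, which bundle spindle microtubules, are the exception at 0.202 to 13.1 CPM in controls. Of their exonic bases 58.4% and 62.2% are shared with another annotated gene, largely a read-through transcript on the same strand, and reads that fall there may have been left uncounted, so their values are uncertain and they are left out of the plots and of the statements on 44 genes. Another 5 genes share at least 10% of their exonic bases with a neighbour, and the sources used here do not give the strand setting of the counting. They are NCAPG (33.1%), SMC4 (25.6%), FOXM1 (15.9%) and PLK1 (12.5%) with genes on the opposite strand, and BUB1B (10.2%) with a gene on its own strand.

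With siRNA in SK-N-SH the called mitosis and spindle genes were all higher, by small amounts. Of the 46 genes 13 rose and 0 fell, where 2.55% of the 21018 genes tested rose and 6.98% fell (9.53% called in either direction). By DESeq2 15 rose and 0 fell, where 813 of all genes rose and 1631 fell. At an unadjusted p under 0.05 in edgeR 19 members stood higher and 0 lower, a count with no share over all genes beside it. The median log2 fold change over the 46 was 0.0787, against 0.00851 over all genes tested, and 41 of 46 estimates were positive. The rises were small, from 0.13 to 0.25 on the log2 scale. Knockdown and control libraries did not overlap for 10 of the 46 genes. The share of all tested genes without overlap was not computed in any experiment, so such counts describe the members alone.

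**Figure D1:**
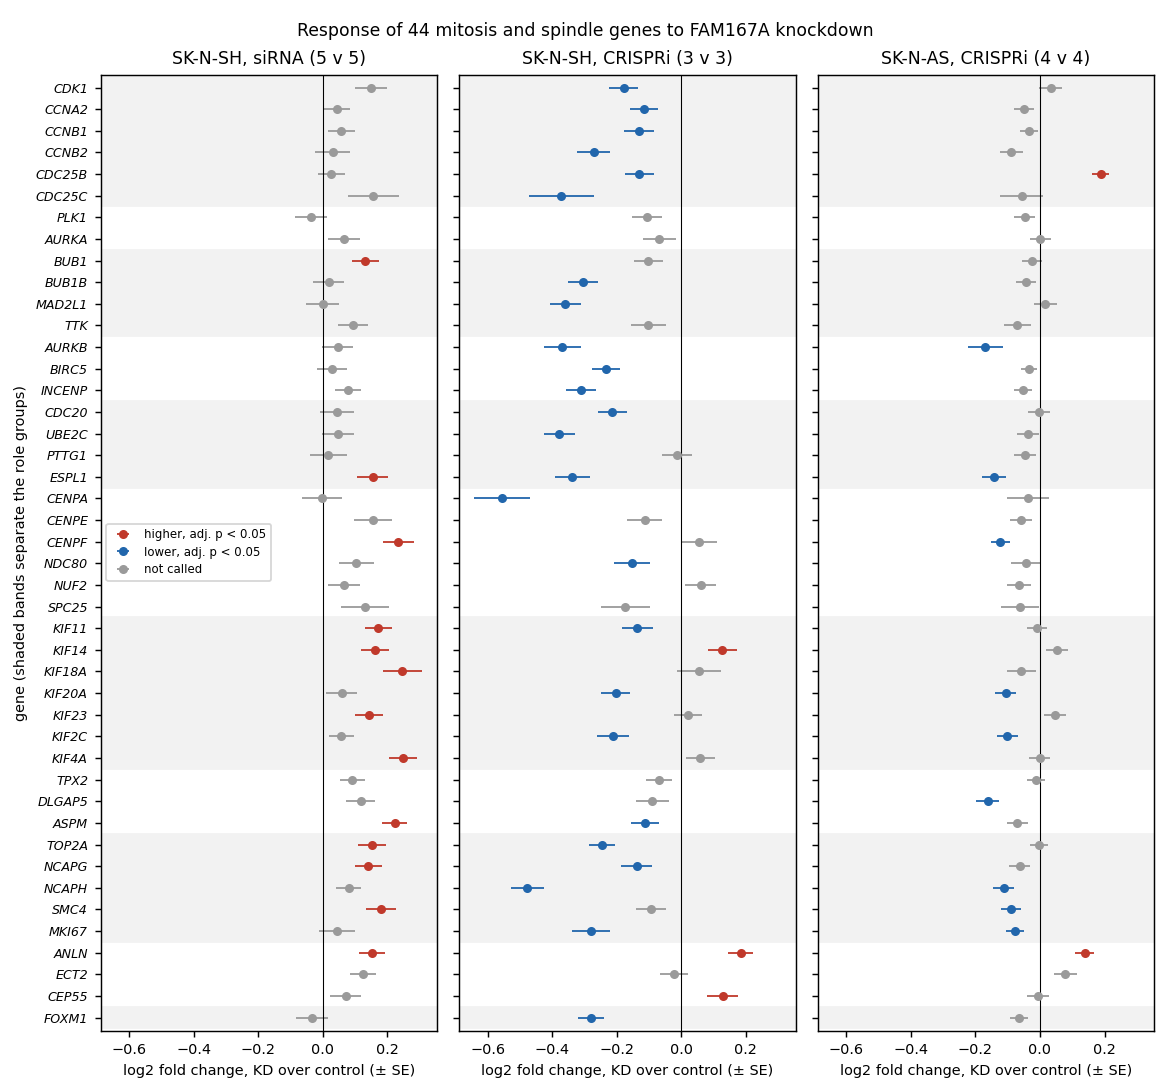
Log2 fold change of 44 mitosis and spindle genes (points, ± SE) in each experiment, grouped by role in shaded and white bands, with PRC1 and NUSAP1 left out; red and blue mark genes called higher and lower. The siRNA panel holds 13 red and 0 blue points, the SK-N-SH CRISPRi panel 3 red and 25 blue points, and the SK-N-AS panel 2 red and 9 blue points.

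The kinesins with KIF names, motors that slide and anchor spindle microtubules, held the most of these rises, with 5 of 7 called. KIF4A, a chromosome-borne motor of the central spindle (ENSG00000090889; GRCh38 chromosome X, 70290104 to 70420886, plus strand), stood at 58.3, 53.6, 58.8, 57.6 and 54.6 CPM in knockdown libraries 1 to 5 and at 48.2, 48.9, 45.4, 49.5 and 46.3 in control libraries 1 to 5. Every knockdown library was above every control, and the log2 fold change was 0.25 ± 0.043 (adjusted p = 0.000331). KIF11, the motor that pushes spindle poles apart, was at 95.1, 89.0, 91.5, 86.0 and 85.5 CPM after knockdown and 82.5, 81.1, 78.2, 80.5 and 74.4 in controls, again without overlap (0.17 ± 0.042, adjusted p = 0.00822). KIF18A, which damps chromosome oscillation, was at 19.96, 20.2, 21.7, 18.2 and 21.0 CPM after knockdown and 17.6, 15.8, 18.4, 17.2 and 16.2 in controls. Knockdown library 4 lay under control library 3, and the fold change was 0.25 ± 0.060 (adjusted p = 0.00899). KIF14, which acts at the midbody, was at 43.4, 40.4, 43.5, 43.1 and 40.3 CPM after knockdown and 37.6, 37.2, 38.3, 37.5 and 37.7 in controls, without overlap (0.16 ± 0.043, adjusted p = 0.0162). KIF23, part of the centralspindlin complex, also rose (0.14 ± 0.043), whereas KIF20A (0.06 ± 0.048) and KIF2C (0.06 ± 0.040) were not called.

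Among spindle and kinetochore proteins, ASPM and CENPF stood out. ASPM, which focuses spindle poles (ENSG00000066279; GRCh38 chromosome 1, 197084121 to 197146694, minus strand), was at 137, 137, 138, 138 and 128 CPM in knockdown libraries and 115, 120.1, 117, 111 and 118 in controls. The groups did not overlap, and the fold change was 0.22 ± 0.038 (adjusted p = 0.000264). CENPF, a large outer kinetochore protein, was at 416, 376, 427, 415 and 355 CPM after knockdown and 344, 331, 348, 336 and 333 in controls. Knockdown library 5 was the nearest to the controls, the groups did not overlap, and the fold change was 0.23 ± 0.048 (adjusted p = 0.00185). The other 5 centromere and kinetochore genes (CENPA, CENPE, NDC80, NUF2 and SPC25) were not called.

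Of 5 genes of chromosome condensation and the chromosome surface, 3 rose: the condensin subunits SMC4 (0.18 ± 0.048, adjusted p = 0.0168) and NCAPG (0.14 ± 0.043, adjusted p = 0.0408), and TOP2A, which untangles sister DNA (0.15 ± 0.043, adjusted p = 0.0265). The checkpoint kinase BUB1 rose (0.13 ± 0.042, adjusted p = 0.0474) and the other 3 checkpoint genes were not called. No member of the CDK1 engine (CDK1, CCNA2, CCNB1, CCNB2, CDC25B, CDC25C), of the chromosomal passenger complex (AURKB, BIRC5, INCENP) or of the kinase pair PLK1 and AURKA was called, and their fold changes lay between -0.04 and 0.16. Proliferation marker MKI67 was at 495 ± 31.4 CPM in controls and 510.1 ± 42.3 after knockdown, a difference within the spread of either group.

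The count of 13 depended on single libraries. It was 8 without knockdown library 3, 5 without control library 2 and 7 without control library 4. Of all genes 331, 297 and 282 rose in these fits, against 536. It was 7 without knockdown libraries 3 and 4 together (290 of all genes), although the median of the 46 was then 0.118. Without those 2 libraries ANLN, KIF14 (adjusted p = 0.105), KIF23 (0.109), NCAPG (0.275), ESPL1 (0.202) and BUB1 (0.0645) were no longer called. Knockdown library 4 and control library 5, whose deviations from their group means correlated at 0.365, were also left out together. ANLN (adjusted p = 0.0593), KIF23 (0.0595), BUB1 (0.0733) and NCAPG (0.168) then lost their call. With 1 library left out in turn, the call was lost in 9 of 10 fits for BUB1, 8 for NCAPG, 7 each for KIF23 and ESPL1, 6 for TOP2A, 2 for SMC4 and 1 each for ANLN and KIF14. ASPM, KIF4A, CENPF, KIF11 and KIF18A kept their call in all 10 fits that left out 1 library and under every other setting tried. Other marker genes moved in the same libraries: 6 of 12 mesenchymal neuroblastoma markers fell (4528 to 5857 CPM in sum after knockdown, 5258 to 5515 in controls), 3 of 11 tested adrenergic markers rose (4597 to 5070 against 4332 to 4793) and 3 of 6 tested fibroblast and smooth muscle markers rose (318.5 to 334 against 288.9 to 319). Their part in the result was not tested.

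CRISPRi in SK-N-SH lowered more of the 46 genes than it raised. Here 25 fell and 3 rose, where 28.0% of the 15391 genes tested fell and 27.7% rose (55.8% called in either direction). The median log2 fold change was -0.134 over the members and -0.00676 over all genes tested, and 38 of 46 estimates were negative. Falls ranged from 0.11 to 0.56 in size on the log2 scale, so no called member reached a 1.5-fold change, and the largest was CENPA at 1.47-fold. Groups did not overlap for 30 of the 46 genes, a count that again has no share over all genes beside it.

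**Figure D2:**
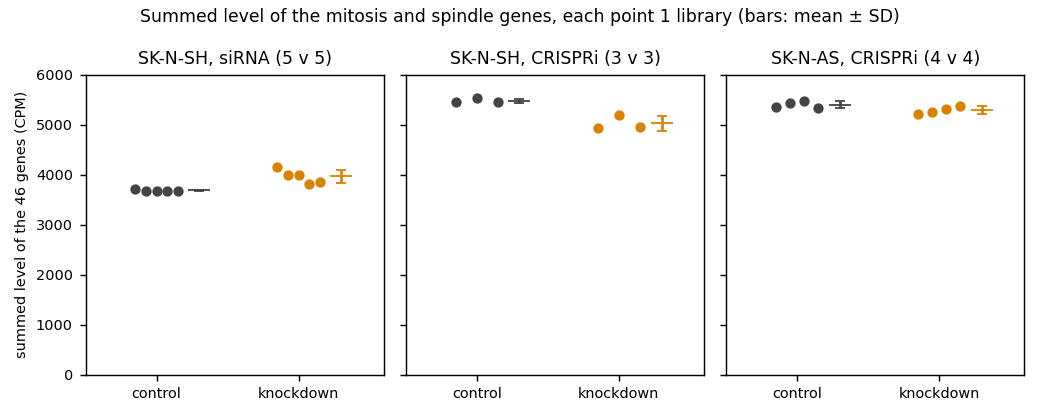
Summed level of the 46 genes in CPM for every library (points), with the group mean ± SD beside them. Knockdown libraries lie above all controls with siRNA (3820 to 4160 against 3668 to 3714 CPM), below all controls in SK-N-SH CRISPRi (4931 to 5189 against 5445 to 5525) and overlap them in SK-N-AS (5211 to 5380 against 5330 to 5474).

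The CDK1 engine, of which no gene was called with siRNA, fell with CRISPRi in SK-N-SH in all 6 of its genes. The catalytic subunit CDK1 stood at 96.2, 94.6 and 88.2 CPM in the 3 knockdown libraries and 105, 105 and 106 in the 3 controls (-0.18 ± 0.045, adjusted p = 0.000997). Cyclin CCNB2 fell by 0.27 and the phosphatase CDC25C by 0.37, while CCNA2, CCNB1 and CDC25B fell by 0.12 to 0.13 on the log2 scale. Each of these last 3 lost its call in 3 of the 6 fits that left out 1 library, and CCNA2 also by DESeq2 (adjusted p = 0.0604) and with no low-count filter (0.102). All 3 passenger complex genes, which correct faulty chromosome attachments, fell too. INCENP, the scaffold of that complex, was at 78.1, 85.0 and 83.2 CPM after knockdown and 103, 98.7 and 103 in controls. No knockdown library reached a control library, and the fold change was -0.31 ± 0.047 (adjusted p = 4.53e-07). The kinase AURKB went from 56.4 ± 2.33 to 43.7 ± 2.12 CPM (-0.37 ± 0.057) and BIRC5 from 152 ± 7.04 to 129.8 ± 5.60 CPM (-0.23 ± 0.044).

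The checkpoint and the machinery it restrains gave some of the clearest falls. MAD2L1, the checkpoint protein that binds CDC20, stood at 71.7, 78.9 and 74.7 CPM after knockdown and 92.6, 99.8 and 96.3 in controls (-0.36 ± 0.048, adjusted p = 4.90e-08). BUB1B, which encodes the checkpoint protein BUBR1, stood at 78.7, 79.2 and 75.1 CPM after knockdown and 93.3, 99.6 and 95.0 in controls (-0.31 ± 0.047, adjusted p = 6.50e-07). In both genes every knockdown library lay below every control. The checkpoint genes BUB1 (-0.10 ± 0.045, adjusted p = 0.0519) and TTK (-0.10 ± 0.054, adjusted p = 0.109) were not called. UBE2C, the enzyme that feeds ubiquitin to the anaphase-promoting complex (ENSG00000175063; GRCh38 chromosome 20, 45812576 to 45816957, plus strand), was at 80.5, 75.3 and 82.9 CPM after knockdown and 103, 102 and 105 in controls (-0.38 ± 0.047, adjusted p = 8.21e-09). CDC20, the activator of that complex (-0.21 ± 0.046), and separase ESPL1 (-0.34 ± 0.053) fell, and the securin gene PTTG1, the inhibitor of separase, was at 90.2 ± 4.01 CPM in controls and 89.3 ± 1.55 after knockdown (-0.01 ± 0.047, not called).

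Condensation genes held the fall with the smallest adjusted p of all members. NCAPH, the condensin I kleisin subunit (ENSG00000121152; GRCh38 chromosome 2, 96335766 to 96377091, plus strand), was at 50.5, 55.9 and 56.1 CPM in knockdown libraries and 73.4, 76.7 and 75.8 in controls. The gap between the groups was wider than the range within either, and the fold change was -0.48 ± 0.052 (adjusted p = 5.23e-10). TOP2A (-0.25 ± 0.040), MKI67 (-0.28 ± 0.059) and NCAPG (-0.14 ± 0.048) fell as well, and SMC4 was not called (-0.09 ± 0.046). CENPA, the histone that marks centromeres (ENSG00000115163; GRCh38 chromosome 2, 26764289 to 26801067, plus strand), had the largest fall, from 24.9 ± 2.87 to 16.8 ± 0.68 CPM (-0.56 ± 0.085, adjusted p = 6.92e-07), whereas CENPE, CENPF, NUF2 and SPC25 were not called. FOXM1, the transcription factor that drives many of these genes, was at 175, 175 and 176 CPM after knockdown and 210.3, 208 and 221 in controls (-0.28 ± 0.040, adjusted p = 1.73e-07).

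The 3 rises were a kinesin and 2 cytokinesis genes. Of the 7 KIF genes 3 fell (KIF2C, KIF20A and KIF11, by 0.14 to 0.21). KIF14 rose, from 87.3, 86.8 and 83.1 CPM in controls to 93.5, 94.7 and 92.1 after knockdown (0.13 ± 0.046, adjusted p = 0.0172). Of 3 cytokinesis genes 2 rose and 0 fell. ANLN, the scaffold that links actin, myosin and septins in the contractile ring, was at 344, 369 and 351 CPM after knockdown and 316, 313 and 309 in controls (0.18 ± 0.039, adjusted p = 0.000112). CEP55, which recruits the abscission machinery to the midbody, was at 86.2, 89.6 and 83.9 CPM after knockdown and 82.4, 76.9 and 78.6 in controls (0.13 ± 0.048, adjusted p = 0.0215). For KIF14, ANLN and CEP55 knockdown and control libraries did not overlap. ECT2, the exchange factor that activates RHOA at the division plane, was at 116 ± 4.07 and 114 ± 2.79 CPM and was not called.

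Of the 25 falls, ASPM lost its call in 4 of the 6 fits that left out 1 library, KIF11 in 3, NCAPG and NDC80 in 2 each and MKI67 in 1 (without control library 2). ASPM (adjusted p = 0.0812), NDC80 (0.0685), NCAPG (0.0544) and KIF11 (0.0524) were also not called by DESeq2.

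The 3 rises rest on the scaling. With library totals alone, without composition factors, the median of all genes shifted to -0.136 and the members' calls became 0 up and 39 down. Of all genes 2791 were then called up and 6397 down, against 4269 and 4313. KIF14 and CEP55 came to -0.00206 and -0.00119 on the log2 scale, and ANLN to 0.0548 (adjusted p = 0.216). With knockdown library 2 or control library 3 left out only ANLN was called, and CEP55 was also not called by DESeq2 (adjusted p = 0.0592). In the same libraries all 11 tested adrenergic markers fell (998 to 1063 CPM in sum after knockdown, 2962 to 3138 in controls), while 9 of 12 mesenchymal markers rose and 2 fell (20940 to 22050 against 10330 to 11980). All 5 tested fibroblast and smooth muscle markers rose (1115 to 1179 against 618 to 664 CPM, with MYH11 and DES under 1 CPM). Of 4 tested epithelial markers 2 rose and 1 fell (159.7 to 168 against 82.2 to 89.2 CPM in sum), with KRT8 and KRT18 higher, CLDN4 lower and EPCAM, CDH1, KRT5, KRT14 and KRT19 under 1 CPM. The mitochondrial share of reads was 5.72% to 6.56% after knockdown and 4.66% to 5.49% in controls. The part of these shifts in the members' result was not tested.

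In SK-N-AS fewer of the genes were called. Of the 46 genes 9 fell and 2 rose, where 15.5% of the 19277 genes tested fell and 15.2% rose (30.6% called in either direction). The median log2 fold change was -0.0454, against -0.0024 over all genes tested, and 36 of 46 estimates were negative. The groups did not overlap for 11 genes, with no share over all genes computed. The 19.6% of members that fell lie close to the background share of 15.5%, whereas the 4.35% that rose lie below that of 15.2%.

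The 2 rises were CDC25B and ANLN. CDC25B (ENSG00000101224; GRCh38 chromosome 20, 3786772 to 3806121, plus strand) stood at 309.7, 309.8, 302 and 297 CPM in knockdown libraries 1 to 4 and 274, 268, 263 and 265 in control libraries 1 to 4. Every knockdown library was above every control, and the fold change was 0.19 ± 0.025 (adjusted p = 2.71e-07). The other 5 genes of the CDK1 engine were not called. Of the falls, the spindle gene DLGAP5 was at 62.7, 62.1, 62.7 and 67.2 CPM after knockdown and 69.7, 71.0, 72.3 and 71.8 in controls (-0.16 ± 0.035, adjusted p = 0.000374). CENPF was at 374, 410.1, 416 and 416 CPM after knockdown and 426, 447, 449 and 437 in controls (-0.12 ± 0.029, adjusted p = 0.00102). Neither gene's groups overlapped, and knockdown library 1 was well below the rest for CENPF.

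NCAPH fell in SK-N-AS as it had in SK-N-SH CRISPRi, by less. Its libraries were at 64.8, 64.9, 66.1 and 66.0 CPM after knockdown and 72.1, 70.3, 71.3 and 69.2 in controls (-0.11 ± 0.033, adjusted p = 0.00836). The midzone motor KIF20A was at 113, 105, 105 and 105 CPM after knockdown and 119.8, 112, 117 and 113 in controls, with knockdown library 1 inside the control range (-0.11 ± 0.032, adjusted p = 0.0109). KIF2C, which depolymerises microtubule ends, was at 76.1, 75.7, 75.9 and 73.3 CPM after knockdown and 81.0, 82.2, 80.1 and 79.8 in controls, with no overlap (-0.10 ± 0.032, adjusted p = 0.0139). AURKB (-0.17 ± 0.054), SMC4 (-0.09 ± 0.031), MKI67 (-0.08 ± 0.028) and ESPL1 completed the falls. The calls on AURKB, KIF2C, MKI67 and SMC4 were lost without at least 1 of the 8 libraries: knockdown library 3 or control library 1 for AURKB, knockdown library 4 for KIF2C, knockdown libraries 1 and 2 and control libraries 2 and 3 for both MKI67 and SMC4, and control library 1 for MKI67. Beside these changes, 8 of 12 adrenergic markers fell (2439 to 2536 CPM in sum after knockdown, 3219 to 3343 in controls), 7 of 12 mesenchymal markers rose and 4 fell (3601 to 3728 against 3595 to 3740), and 4 of 5 tested fibroblast and smooth muscle markers rose and 1 fell (1346 to 1413 against 1128 to 1175). PTPRC fell as well, and the blood markers summed to 436.4 to 463.9 CPM after knockdown against 517.7 to 561.4 in controls, with the other 7 under 1 CPM. The part of these markers in the result was not tested.

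ANLN and ESPL1 were the 2 members called in all 3 experiments. Another 13 genes were called in 2, 20 in 1 and 11 in none. Of all genes tested 9.53% were called with siRNA, 55.8% in SK-N-SH CRISPRi and 30.6% in SK-N-AS. How many of all genes were called in more than 1 experiment was not counted, so these counts describe the members alone. ANLN (ENSG00000011426; GRCh38 chromosome 7, 36389821 to 36453791, plus strand) rose in each experiment. With siRNA it stood at 103, 99.7, 104, 105 and 100.2 CPM after knockdown and 93.6, 86.6, 97.9, 94.9 and 87.8 in controls (0.15 ± 0.041, adjusted p = 0.0171). In SK-N-AS it stood at 218, 219.9, 230.2 and 229.6 CPM after knockdown and 195, 212, 210.0 and 199.7 in controls (0.14 ± 0.029, adjusted p = 0.000324). Groups did not overlap in any experiment, and the 3 fold changes lay between 0.14 and 0.18. The call with siRNA was lost without control library 2 (adjusted p = 0.0913) and without knockdown libraries 3 and 4 (adjusted p = 0.0937). It was also lost without knockdown library 4 and control library 5 together (adjusted p = 0.0593).

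The 11 genes called in no experiment were the mitotic kinases PLK1, AURKA and TTK, the spindle factor TPX2, securin PTTG1, the kinetochore genes CENPE, NUF2 and SPC25, the cytokinesis gene ECT2, and PRC1 and NUSAP1. Without PRC1 and NUSAP1 their log2 fold changes lay between -0.04 and 0.16 with siRNA, between -0.17 and 0.06 in SK-N-SH CRISPRi and between -0.07 and 0.08 in SK-N-AS. PLK1, the Polo kinase that drives mitotic entry and centrosome maturation, was at 64.8 ± 2.18 CPM in siRNA controls and 63.2 ± 5.26 after knockdown, at 138 ± 10.1 and 129 ± 3.53 in SK-N-SH CRISPRi, and at 133 ± 4.60 and 129 ± 5.04 in SK-N-AS. AURKA, which matures centrosomes, had fold changes of 0.07 ± 0.050, -0.07 ± 0.051 and 0.00 ± 0.032 in the same order.

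**Figure D3:**
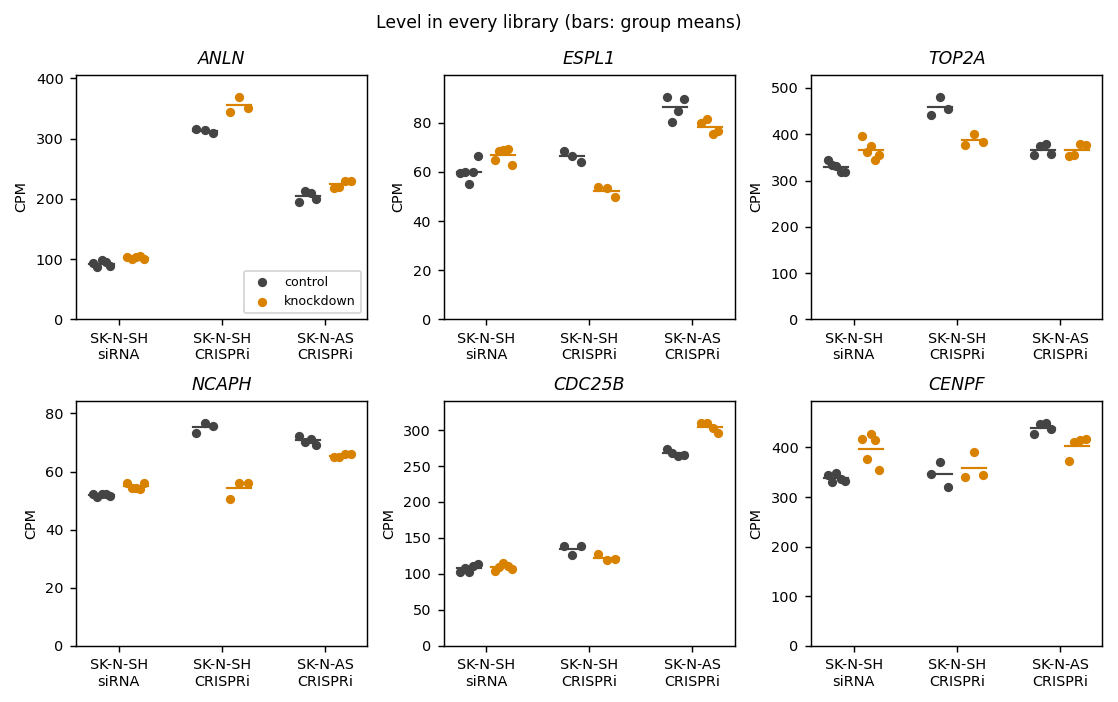
CPM in every library (points) and group means (bars) for 6 members in the 3 experiments, control in dark grey and knockdown in orange, with axes from 0. ANLN is higher after knockdown in all 3 experiments, ESPL1 and TOP2A are higher with siRNA and lower with CRISPRi in SK-N-SH, and CDC25B is higher in SK-N-AS.

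ESPL1 (ENSG00000135476; GRCh38 chromosome 12, 53268299 to 53293638, plus strand) changed direction with the method. With siRNA it was at 64.7, 68.6, 69.1, 69.3 and 63.0 CPM after knockdown and 59.4, 60.01, 55.1, 59.8 and 66.3 in controls. Control library 5 lay among the knockdown libraries, and the rise of 0.15 ± 0.047 (adjusted p = 0.0411) was called in 3 of the 10 fits that left out 1 library. With CRISPRi in SK-N-SH it was at 53.9, 53.5 and 49.9 CPM after knockdown and 68.7, 66.3 and 64.2 in controls, without overlap (-0.34 ± 0.053, adjusted p = 1.07e-06). In SK-N-AS it was at 79.9, 81.6, 75.5 and 76.8 CPM after knockdown and 90.6, 80.5, 84.9 and 89.7 in controls, where the highest knockdown library passed the lowest control (-0.14 ± 0.036, adjusted p = 0.00254). Both CRISPRi calls held in every fit that left out 1 library.

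The difference between the methods in SK-N-SH was tested directly, as the CRISPRi response minus the siRNA response in one edgeR model with each experiment's own controls. For 32 of the 46 genes the CRISPRi response was lower and for 0 it was higher, where 16.4% of the 23287 genes tested were lower and 15.1% higher (31.4% called in either direction). DESeq2 also called 32 lower and 0 higher, where 3748 of all genes were lower and 3731 higher. The fit without siRNA knockdown libraries 3 and 4 gave the same counts (3724 and 3653 of all genes), though KIF4A was no longer called (adjusted p = 0.087). Of the 32 genes 22 kept their call in every fit that left out 1 library. TPX2 and CCNA2 each lost it in 13 of those 16 fits, TTK in 12, and CCNB1 and SPC25 in 11 each. The median difference was -0.27 over the members and -0.0637 over all genes tested, and 44 of 46 differences were negative. NCAPH differed by -0.57 ± 0.068 (adjusted p = 2.39e-08) and ESPL1 by -0.50 ± 0.077 (adjusted p = 2.46e-06). INCENP differed by -0.40 ± 0.067 (adjusted p = 9.99e-06) and TOP2A by -0.41 ± 0.070 (adjusted p = 1.37e-05). TOP2A was at 395, 361, 374, 345 and 356 CPM after siRNA and 345, 334, 332, 319 and 318 in those controls, and at 377, 400.4 and 383 CPM after CRISPRi and 441, 481 and 455 in its own controls. Its siRNA groups overlapped, since knockdown library 4 lay just under control library 1, and its CRISPRi groups did not.

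For ANLN the difference was 0.02 ± 0.064, for CEP55 0.05 ± 0.074, for KIF14 -0.05 ± 0.066 and for NUF2 -0.02 ± 0.077, none called. Those 4 values are close to 0 beside the median of -0.27, but a p above the threshold does not show equal responses. Of the 13 genes that rose with siRNA 5 fell with CRISPRi in the same line (ASPM, KIF11, NCAPG, TOP2A and ESPL1), 2 rose (ANLN and KIF14) and 6 were not called. Of those 5, TOP2A and ESPL1 kept the fall, but not the rise, in every fit that left out 1 library, ASPM and KIF11 kept the rise but not the fall, and NCAPG kept neither. Despite the opposite signs, the order of the members was partly kept: across 44 genes the log2 fold changes of the SK-N-SH experiments had a Spearman rho of 0.426, against -0.237 over the 14973 genes tested in both. The genes share libraries within each experiment, so this is a description.

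Between the lines, the CRISPRi response in SK-N-AS minus that in SK-N-SH was higher for 15 members and lower for 1 (CENPF), where 14.7% of the 19862 genes tested were higher and 16.0% lower (30.7% called in either direction). FAM167A stood at 1.33% of its control level in SK-N-SH and 10.7% in SK-N-AS, so the line and the degree of depletion cannot be told apart. The median difference was 0.0914 over the members and 0.0119 over all genes. Of the 16 called members 9 kept their call in every fit that left out 1 library, and MKI67 lost it in 6 of 14. CDC25B had the smallest adjusted p, with a difference of 0.31 ± 0.051 (adjusted p = 3.86e-06). In SK-N-SH it had been at 127, 119.7 and 120.3 CPM after knockdown and 138, 126 and 138 in controls, a fall with overlapping groups (-0.13 ± 0.045), against its rise in SK-N-AS. MAD2L1 differed by 0.36 ± 0.063 (adjusted p = 7.27e-06), NCAPH by 0.35 ± 0.062 (adjusted p = 9.77e-06) and UBE2C by 0.33 ± 0.058 (adjusted p = 1.31e-05). In SK-N-AS UBE2C was at 74.2, 71.6, 72.4 and 68.7 CPM after knockdown and 75.7, 74.7, 72.8 and 71.7 in controls, and MAD2L1 at 143, 132, 138 and 148 and 129.5, 147, 139.9 and 139.8, with overlapping groups for both. The 2 CRISPRi experiments shared 6 falls (AURKB, ESPL1, KIF20A, KIF2C, MKI67 and NCAPH) of 25 in SK-N-SH and 9 in SK-N-AS, and 1 rise (ANLN). The share of all genes called alike in both was not counted, so these counts do not show agreement between the lines.

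The lone lower call, CENPF (-0.19 ± 0.069, adjusted p = 0.0363), was lost in 8 of the 14 fits that left out 1 library and with library totals alone, which gave 32 higher and 0 lower. Of all genes 4932 were then higher and 1813 lower, against 2920 and 3178. CENPF had a fold change of 0.05 ± 0.057 in SK-N-SH CRISPRi, with libraries at 339.6, 390.3 and 345 CPM after knockdown and 347, 370.4 and 319 in controls. Across 44 members the 2 CRISPRi responses had a Spearman rho of 0.288, against 0.325 over 14236 genes, and the siRNA and SK-N-AS responses one of -0.011, against -0.0916 over 16113 genes.

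With siRNA the called members were all long transcripts. Exonic length, as the siRNA table gives it, had a median of 4393 bases over the 44 genes, and all 13 risers were among the 22 genes at or above it. The median log2 fold change was 0.148 for those 22 and 0.0579 for the shorter 22, and the Spearman rho with length was 0.49. Over all 21018 genes tested it was -0.0231, with medians of 0.0136 and 0.00383 above and below the same length. In SK-N-SH CRISPRi the members' rho was 0.256 (medians -0.109 for long and -0.176 for short genes), and in SK-N-AS it was 0.00296 (-0.0497 and -0.0454). Longer transcripts collect more reads and so have smaller counting errors, and the part of this in the calls was not tested.

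**Figure D4:**
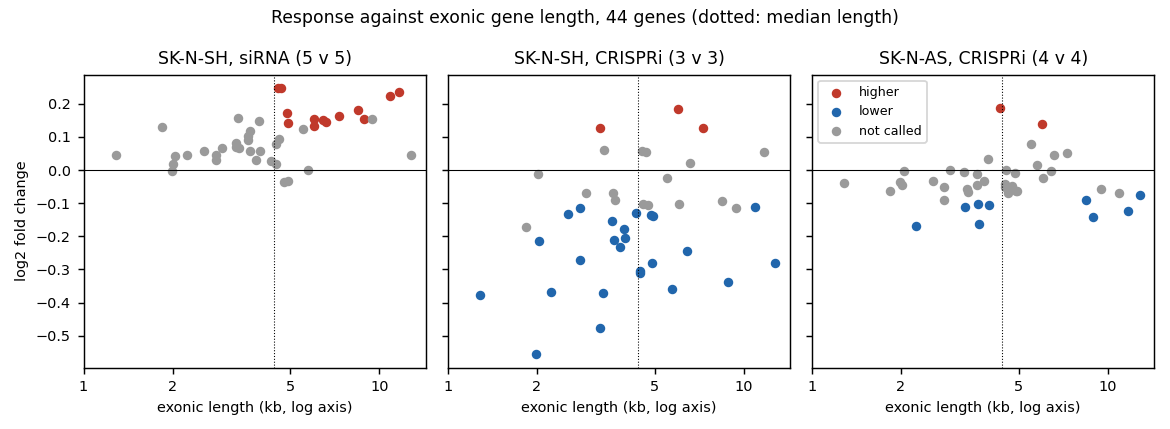
Log2 fold change against exonic length in kilobases (log axis) for 44 members in each experiment, with calls coloured and the median length dotted. With siRNA every red point lies to the right of the dotted line, and blue points lie on both sides in the CRISPRi panels.

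The CHR hexamer did not separate the responses in one way across experiments. With siRNA 10 of 24 genes with the hexamer rose (median 0.136) and 3 of 16 without it (median 0.0579). With CRISPRi in SK-N-SH 13 of 24 with it fell (median -0.138) and 9 of 16 without it (median -0.131), and in SK-N-AS 4 of 24 and 5 of 16 fell (medians -0.0454 and -0.0481). The members also varied together among libraries of the same group: the mean correlation between pairs of the 44 genes, after group means were removed, was 0.168 with siRNA, 0.132 in SK-N-SH CRISPRi and 0.0425 in SK-N-AS, against 0.000398, 0.000609 and 0.00093 over all tested genes. Members are thus not independent of each other, and a count of called members does not take this into account.

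A wider list of mitosis genes was read in the same way. Of 124 other mitosis genes 19 (15.3%) rose and 2 (1.61%) fell with siRNA (median 0.0865), against 2.55% and 6.98% of all genes tested. With CRISPRi in SK-N-SH 8 (6.5%) rose and 64 (52%) fell of 123 tested (median -0.151), against 27.7% and 28.0% of all genes. In SK-N-AS 5 (4.03%) rose and 42 (33.9%) fell (median -0.071), against 15.2% and 15.5% of all genes. With siRNA the smallest adjusted p among rises belonged to CDCA2 (0.31 ± 0.060, adjusted p = 0.000915), ARHGAP11A (0.20 ± 0.043), the cohesin subunit SMC3 (0.20 ± 0.045) and the lamin LMNB1 (0.18 ± 0.042). The 2 falls were RACGAP1, the partner of KIF23 in centralspindlin (-0.18 ± 0.037), and CENPX (-0.17 ± 0.049). In SK-N-SH CRISPRi the cohesin protector CDCA5 (-0.69 ± 0.048), the kinesin KIF18B (-0.68 ± 0.053), the phosphatase CDC25A (-0.86 ± 0.069) and the CDK1 inhibitory kinase PKMYT1 (-0.64 ± 0.062) fell with the smallest adjusted p. Rises there were led by ENSA and ARPP19, both inhibitors of the phosphatase PP2A-B55, and by CDC16 and CDC27 of the anaphase-promoting complex, at 0.13 to 0.19. In SK-N-AS SKA1 (0.36 ± 0.037), CKAP2L (0.29 ± 0.039), CDC16 (0.19 ± 0.034) and CDC27 (0.10 ± 0.030) rose, and JPT1 (-0.26 ± 0.025), STMN1 (-0.17 ± 0.023), LMNB1 (-0.19 ± 0.027) and the condensin II subunit NCAPG2 (-0.21 ± 0.031) fell.

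Most genes of S phase fell with CRISPRi. Of 64 such genes 59 (92.2%) fell and 1 (1.56%) rose in SK-N-SH (median -0.408), against 28.0% and 27.7% of all genes tested. In SK-N-AS 40 (62.5%) fell and 0 rose (median -0.151), against 15.5% and 15.2% of all genes. With siRNA 4 (6.25%) rose and 0 fell (median 0.0601), against 2.55% and 6.98% of all genes. Whether this list differs from the mitosis genes was not tested. In SK-N-SH the replicative helicase subunits MCM3 (-0.70 ± 0.040), MCM4 (-0.59 ± 0.040) and MCM2 (-0.58 ± 0.041) fell with the smallest adjusted p, and PRIM2 was the rise (0.26 ± 0.066). In SK-N-AS E2F1 (-0.42 ± 0.039), MCM2 (-0.26 ± 0.029) and MCM6 (-0.23 ± 0.030) fell, and with siRNA USP1 (0.18 ± 0.040), MCM10 (0.14 ± 0.038) and CASP8AP2 (0.16 ± 0.046) rose.

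**Figure D5:**
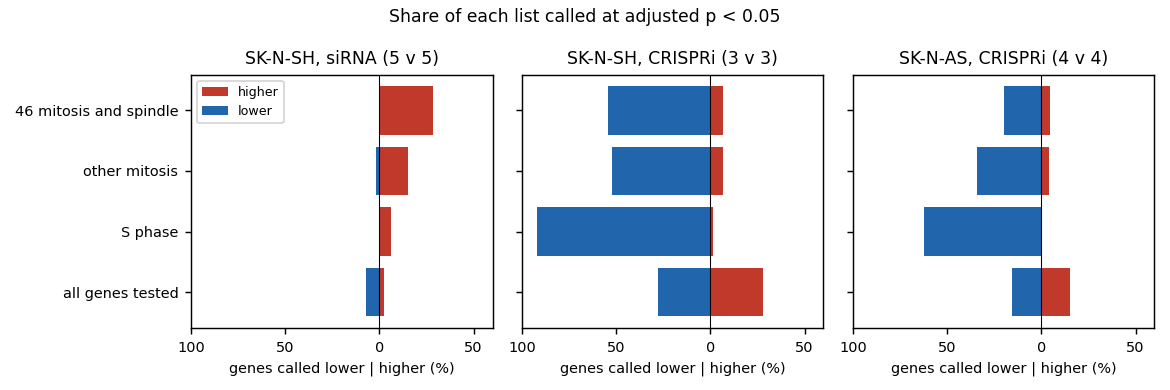
Percent of each list called lower (left, blue) and higher (right, red) at an adjusted p under 0.05 in the 3 experiments, for the 46 members, 124 other mitosis genes, 64 S-phase genes and all genes tested. Members called higher reach 28.3% with siRNA against 2.55% of all genes, and members called lower reach 54.3% in SK-N-SH CRISPRi against 28.0%, with 92.2% of S-phase genes lower in that experiment.

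Among 32 regulators of these genes, of which 31 were tested in each experiment, 5 rose and 3 fell with siRNA, 8 rose and 13 fell with CRISPRi in SK-N-SH, and 5 rose and 10 fell in SK-N-AS. The shares that rose, 16.1%, 25.8% and 16.1%, stand beside 2.55%, 27.7% and 15.2% of all genes, and those that fell, 9.68%, 41.9% and 32.3%, beside 6.98%, 28.0% and 15.5%. CDKN1A, the CDK inhibitor p21 through which p53 acts on DREAM, fell with siRNA from 544 ± 24.5 to 473 ± 25.8 CPM (-0.20 ± 0.047, adjusted p = 0.0055). With CRISPRi it rose, from 388 ± 20.3 to 603 ± 15.9 CPM in SK-N-SH (0.63 ± 0.040, adjusted p = 2.18e-16) and from 17.1 ± 0.787 to 32.3 ± 1.11 CPM in SK-N-AS (0.92 ± 0.050, adjusted p = 5.29e-17). The repressor E2F7 had the same signs (-0.18 ± 0.051, 0.25 ± 0.060 and 0.35 ± 0.038, all called). MYBL2, the B-MYB subunit that turns MuvB into an activator, was not called with siRNA (0.02 ± 0.038) and fell with CRISPRi in SK-N-SH (-0.31 ± 0.041) and SK-N-AS (-0.30 ± 0.029). The DREAM pocket protein gene RBL2 rose with CRISPRi in both lines (0.29 ± 0.046 and 0.08 ± 0.031), and its relative RBL1 rose with siRNA (0.20 ± 0.055) and fell with CRISPRi in SK-N-SH (-0.25 ± 0.074). Among inhibitors of CDK4 and CDK6, CDKN2B fell with siRNA (-1.001 ± 0.12) and rose with CRISPRi in SK-N-SH (0.74 ± 0.13), and CDKN2C rose in both (0.15 ± 0.047 and 0.57 ± 0.053). CDK6 itself rose in both SK-N-SH experiments (0.26 ± 0.045 and 0.58 ± 0.041) and fell in SK-N-AS (-0.08 ± 0.029), and RB1 (0.16 ± 0.040) and the NF-Y subunit NFYB (0.22 ± 0.051) rose with siRNA.

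The remaining called regulators were called with CRISPRi, and their difference from the siRNA response was not tested. In SK-N-SH the MuvB subunit LIN37 (0.43 ± 0.16) and NFYA (0.12 ± 0.048) rose, while LIN52 and RBBP4, also MuvB subunits, fell (-0.20 ± 0.077 and -0.25 ± 0.041). The E2F4 gene (-0.14) and its partners TFDP1 (-0.13) and TFDP2 (-0.12) fell there, as did the G1 genes CCND1 (-0.13), CCND3 (-0.20), CDK2 (-0.14) and CDK4 (-0.20). The CDK inhibitors CDKN1B (-0.28 ± 0.061) and CDKN1C (-1.24 ± 0.22) fell in SK-N-SH, and in SK-N-AS CDKN1B rose (0.20 ± 0.033) and CDKN1C fell (-0.44 ± 0.11). In SK-N-AS TFDP1 rose (0.13), and CDKN2A (-0.53), E2F5 (-0.27), E2F8 (-0.17), TFDP2 (-0.10), NFYC (-0.12), CDK2 (-0.17) and CDK4 (-0.07) fell.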

How the data were processed

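Per the submitters' processing notes, the authors used bcl2fastq 2.20.0.422 and 2.20, CASAVA, FastQC 0.11.8, STAR 2.6.1d and featureCounts 1.5.1 with GRCh38. The sources used here do not give which tool served which experiment, the annotation or the strand setting. Per the labels, the CRISPRi libraries came from a stranded mRNA kit, and the siRNA protocol covers both kinds. The deposited files hold whole-number counts, unnormalised reads per gene, in 1 table per experiment, and all 24 libraries were used.

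Each experiment was fitted alone with edgeR 4.0.16 in R 4.3.3: filterByExpr (minimum count 10, minimum total 15), TMM scaling and the quasi-likelihood test, two-sided, with Benjamini-Hochberg adjustment over all genes tested. Differences between experiments were interaction terms over genes joined by Ensembl ID. The fits were tested on simulated data. The members, lists, named genes and tests were chosen with earlier results of these data known. Named are FAM167A, all 46 members, called regulators and the called list genes with the smallest adjusted p. Values per library are given for ANLN, ESPL1, the 6 members with the smallest adjusted p per direction and experiment, and the 4 per test of difference. CDK1 was added to these after its values were seen. Exon sharing used GENCODE 29. Alternatives were DESeq2 1.42.0, RLE factors, library totals alone, no filter, a filter at 1 CPM, a replicate block and leaving out each library. With siRNA the library pairs named above were also left out, a choice made after seeing the data.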

Additional observations from a re-analysis of the deposited data

Results flagged for a closer look

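Only groups of 4 or 5 libraries were examined, so SK-N-SH CRISPRi, with 3 per group, was left out. In 9 of 92 groups examined 1 library lay far from the others relative to the range of its group, where chance alone gives about 1 in 20. With siRNA these were ASPM at 127.6 CPM in knockdown library 5 (the lowest), CEP55 at 29.99 CPM in knockdown library 4 (the lowest), DLGAP5 at 55.52 CPM in knockdown library 1 (the highest) and the members' summed level of 3714 CPM in control library 1 (the highest). In SK-N-AS they were CENPF at 373.5 CPM in knockdown library 1 and FOXM1 at 180.5 CPM in knockdown library 3 (both the lowest). DLGAP5 at 67.23 CPM in knockdown library 4 and KIF20A at 113.2 CPM in knockdown library 1 were the highest, and KIF2C at 73.29 CPM in knockdown library 4 the lowest.

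Responses differed between experiments by an interaction test in edgeR (adjusted p under 0.05). In SK-N-SH 32 of 46 members responded lower to CRISPRi than to siRNA. The smallest adjusted p belonged to NCAPH (-0.567 on the log2 scale), ESPL1 (-0.504), INCENP (-0.398) and TOP2A (-0.408). Between the lines 15 members responded higher and 1 lower in SK-N-AS than in SK-N-SH. The smallest adjusted p belonged to CDC25B (0.306), MAD2L1 (0.363), NCAPH (0.351) and UBE2C (0.326). The libraries of the siRNA and CRISPRi experiments were prepared by different protocols, and the part of the protocol in the first set of differences cannot be told apart from the method of knockdown. FAM167A was at 34.7% of its control level with siRNA, 1.33% in SK-N-SH CRISPRi and 10.7% in SK-N-AS. The degree of depletion thus cannot be told apart from the method in the first set or from the line in the second.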

How the results depend on the processing

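The members' median kept its sign under every setting run (0.0655 to 0.128 with siRNA, -0.263 to -0.113 in SK-N-SH CRISPRi, -0.0519 to -0.0329 in SK-N-AS), and counts moved more. The 13 rises with siRNA became 20 with library totals alone, where 1315 of all genes rose, against 536. They became 7 without knockdown libraries 3 and 4 (chosen after seeing the data), and ranged from 5 to 12 with 1 library left out. In SK-N-SH CRISPRi library totals alone gave 0 rises and 39 falls, against 3 and 25, where 2791 of all genes rose and 6397 fell. That scaling turned KIF14 (-0.00206) and CEP55 (-0.00119) negative, and moved the median of all genes to -0.136. With 1 library left out the rises there ranged from 1 to 3. For SK-N-AS minus SK-N-SH, library totals alone gave 32 higher and 0 lower, where 4932 of all genes were higher and 1813 lower. DESeq2 gave 2 lower and a filter at 1 CPM 0 lower, and leaving out 1 library gave 0 to 2 lower. The 19 rises of the wider mitosis list with siRNA became 43 with library totals alone, 10 without knockdown libraries 3 and 4 and 8 to 16 with 1 library left out, and its 64 falls in SK-N-SH CRISPRi became 101 with library totals alone, with 0 rises against 8. The 4 S-phase rises with siRNA became 17 with library totals alone, 10 with DESeq2 and 8 with a filter at 1 CPM, 2 under the replicate block and 1 to 6 with 1 library left out (1 without control library 4). The cause was not tested. Replicate numbers did not pair the libraries (correlations of deviations from group means between -0.22 and 0.06). The replicate block gave 9 rises with siRNA and 27 lower responses for CRISPRi minus siRNA, against 13 and 32. It gave 11 rises of the wider list with siRNA, against 19. Under the block 322 of all genes rose with siRNA, against 536, and 3518 responded lower to CRISPRi than to siRNA, against 3811. Depth was lowest in SK-N-SH CRISPRi, where NUSAP1 had 21 reads over the 3 knockdown libraries.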
